A study of Mus musculus with 23 samples.

Results

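Vacuolar proton pump subunits and carbonic anhydrases were described across 4 groups of connecting tubule and cortical collecting duct libraries from mouse kidney. The members were the protein-coding genes whose symbol begins with Atp6v0 or Atp6v1, or consists of Car and a number with or without the letter a or b. This gave 39 of the 54393 genes in the table, of which 23 carry an Atp6v symbol and 16 a Car symbol. Atp6v1fnb, a neighbour of Atp6v1f that is not known as a subunit, is among the 23, which leaves 22 pump subunit genes, 13 of the V1 sector and 9 of the V0 sector. Another 2 genes with a matching symbol, Atp6v0c-ps1 and Atp6v0c-ps2, are not protein-coding and were not members.

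Tubules were dissected by hand from mice that all carried Pax8-rtTA, TRE-LC-1 and MRflox/flox, a system in which doxycycline switches on a Cre recombinase in Pax8-expressing renal tubule cells and removes part of the floxed Nr3c2 gene, which encodes the mineralocorticoid receptor. The 23 libraries formed 4 groups: induced knockout mice on low potassium (KO-LK, n = 6), induced knockout mice on normal potassium (KO-NK, n = 6), uninduced control mice on high potassium (CT-HK, n = 6) and uninduced control mice on normal potassium (CT-NK, n = 5). The drinking water of knockout mice held doxycycline (2 mg/ml, with 5% sucrose) over 2 weeks, and a washout of 2 weeks on a rescue diet followed; controls had the sucrose water with no doxycycline, and all groups spent 4 days on their potassium diet. Knockout and doxycycline therefore cannot be told apart in these groups, the labels do not say whether controls ate the rescue diet, and Cre driven through Pax8 is not limited to the dissected segments. The labels number the replicates but do not say that each library is a separate animal, so the spread behind each p-value is that of libraries and may be technical.

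The vacuolar proton pump is a rotary machine: its peripheral V1 sector breaks down ATP, and its membrane sector V0 carries protons across the membrane. It acidifies lysosomes and endosomes in every cell, and in the intercalated cells of the collecting duct it also stands in the plasma membrane, where it secretes acid into urine or returns it to blood. Carbonic anhydrases convert carbon dioxide and water into bicarbonate and a proton, and so supply the pump with protons and the bicarbonate exchangers with their substrate. Principal cells, which reabsorb sodium through aldosterone-regulated channels, lie beside intercalated cells in these segments, and both kinds were in the dissected tubules.

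Libraries held 16158408 to 34154475 estimated counts. Nr3c2 averaged 54.3 ± 15.6 CPM (estimated counts brought to equal library size by TMM) in KO-LK and 58.8 ± 10.4 CPM in KO-NK, against 108 ± 25.8 CPM in CT-HK and 108 ± 33.2 CPM in CT-NK (SD). On the deposited TPM scale the groups were closer, with means of 34.2 TPM in KO-LK (21.8 to 47.5) and 34.9 TPM in KO-NK (26.6 to 42.4), against 38.2 TPM in CT-HK (23.01 to 47.7) and 40.9 TPM in CT-NK (22.9 to 55.2). Transcripts of principal cells such as Aqp2 and of intercalated cells such as Foxi1, Slc4a9 and Slc26a4 were found in every library. The summed level of 7 general intercalated cell markers was 3423 to 5165 CPM in KO-LK and 2531 to 6016 CPM in KO-NK, against 4011 to 6705 CPM in CT-HK and 4035 to 6928 CPM in CT-NK. The sum of 10 proximal tubule markers, a segment that was not the target of the dissection, was 242 to 802 CPM in KO-LK and 628 to 2578 CPM in KO-NK, against 126 to 17700 CPM in CT-HK and 282 to 11460 CPM in CT-NK. The libraries richest in proximal transcripts were CT-HK replicate 6, CT-NK replicate 5 and CT-NK replicate 4. The summed level of 5 connecting tubule markers differed more between the arms, at 4663 to 18650 CPM in KO-LK and 7745 to 14930 CPM in KO-NK, against 19280 to 63050 CPM in CT-HK and 27650 to 39030 CPM in CT-NK. Klk1 made up most of this sum. Trpv5, a calcium channel and another of the 5, had a positive log2 fold change in knockout against control (0.56, adjusted p = 0.09871, edgeR) and was higher in KO-LK against CT-NK (1.28, adjusted p = 0.02796, edgeR). Transcripts of olfactory and vomeronasal receptor genes summed to 388.9 to 2850 CPM in KO-LK and 762 to 6826 CPM in KO-NK, against 402 to 4100 CPM in CT-HK and 496 to 3441 CPM in CT-NK. In bulk tubules, fewer cells of a type and less RNA per cell cannot be told apart.

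Levels were first set side by side per transcript length, in TPM (the deposited values scaled by transcript length, averaged over all 23 libraries). The most abundant member was Car15, with 1682 ± 493 TPM, the 48th highest level in the table. Car15 encodes a membrane-anchored carbonic anhydrase of mouse kidney. It was followed by Atp6v0c, the proteolipid that forms most of the rotating ring in the membrane, at 1196 ± 319 TPM. Atp6v1f, subunit F of the central rotor shaft, had 1111 ± 228 TPM. Car2, the cytosolic enzyme of intercalated cells, had 1008 ± 197 TPM. Over all 23 libraries, each of these 4 means lay less than 1 SD below the one before it. Within KO-LK, Car15 (1662 to 2347 TPM) lay above Atp6v0c (952.7 to 1541 TPM), and in the other groups their ranges overlapped.

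Below them stood Atp6v0e (885 ± 172 TPM), Atp6v0b (716 ± 153 TPM) and Atp6v1e1 (654 ± 129 TPM), which encode the small subunit e, the second ring proteolipid and the stator stalk subunit E. A further group of pump genes lay between 114 and 357 TPM. It held Atp6v1g3, Atp6v1b1, Atp6v1a, Atp6v1c2, Atp6v1h, Atp6v1g1, Atp6v0d2, Atp6v1d and Atp6v0a4, and with them the membrane carbonic anhydrase Car12 (128 ± 25.4 TPM). Atp6v0d1, Atp6v1b2 and Atp6v1c1, the widely expressed forms of subunits d, B and C, followed at 69.1 ± 21.8, 60.2 ± 6.61 and 45.4 ± 5.03 TPM. The remaining tested members had mean levels of 0.354 TPM (Car13) to 15.3 TPM (Car4). Car13 is a cytosolic enzyme, and Car4 is a membrane-anchored enzyme of the proximal tubule.

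For subunits a, B, C, d and G, each encoded by more than 1 gene, the form known from kidney or other acid-secreting epithelia had the higher TPM in every library. The ratio of Atp6v0a4 to Atp6v0a1 had a median of 10.5 (range 6.07 to 14.4 over 23 libraries); a4 is the kidney form of the large membrane subunit, and loss of either a4 or B1 causes distal renal tubular acidosis in humans. The ratio of Atp6v0a4 to Tcirg1, which encodes the osteoclast form a3, had a median of 12.7 (range 4.13 to 20). Atp6v1b1 stood at 4.68 times Atp6v1b2 (range 2.59 to 9.37), where B is the subunit that shares the ATP-binding sites with A.

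For the regulatory subunit C, the ratio of Atp6v1c2 to Atp6v1c1 had a median of 5.03 (range 2.7 to 7.38). The ratio of Atp6v0d2 to Atp6v0d1, the 2 forms of the subunit that links rotor and ring, was smaller, with a median of 2.24 (range 1.53 to 3.08). For the stalk subunit G, the ratio of the kidney form Atp6v1g3 to the general form Atp6v1g1 had a median of 2.38 (range 1.3 to 2.84). The opposite pattern, with the general form the more abundant, held for subunit e, where the ratio of Atp6v0e to Atp6v0e2 had a median of 180 (range 44 to 795). Atp6v1e2, the testis form of subunit E, averaged 0.218 TPM and was listed at 0 in 2 libraries.

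The ratio of C2 to C1 averaged 5.46 ± 0.897 in KO-LK and 5.44 ± 0.368 in KO-NK, against 3.8 ± 0.575 in CT-HK and 5.47 ± 1.7 in CT-NK (SD). The 6 CT-HK libraries lay between 2.7 and 4.36, below all KO-LK and KO-NK libraries (4.5 to 6.97 and 4.89 to 5.88), while CT-NK spanned 3.21 to 7.38 and overlapped all others. The ratio of d2 to d1 averaged 2.37 ± 0.278 in KO-LK, 1.99 ± 0.596 in KO-NK, 2.24 ± 0.417 in CT-HK and 2.47 ± 0.527 in CT-NK, and these groups overlapped. Ratios were described and not tested.

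**Figure D1:**
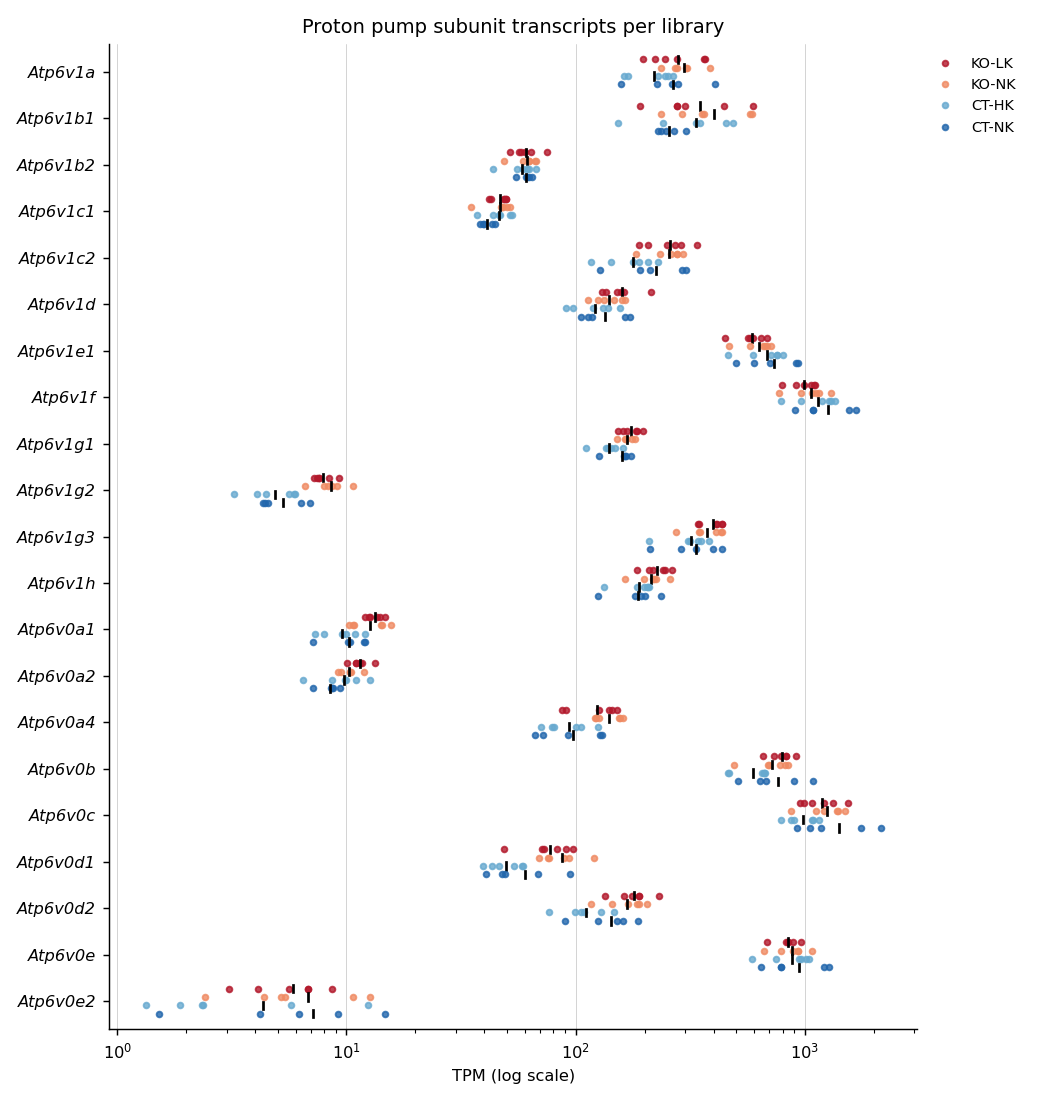
TPM of the 21 tested pump subunit genes in each of the 23 libraries on a log axis, with V1 genes above V0 genes. Points are libraries, coloured by group, and the black ticks are group means. Atp6v0c, Atp6v1f and Atp6v0e lie near 1000 TPM, and the groups overlap for most genes.

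The carbonic anhydrases divided in the same way into 3 abundant genes, Car15, Car2 and Car12, and 13 of low level. Among the low ones, Car14 (7.22 ± 12.4 TPM) and Car5b (6.43 ± 0.806 TPM) had similar means and very different spreads. Car14 is a membrane enzyme of the proximal tubule and Car5b is one of the mitochondrial enzymes. Car8, Car10 and Car11, which keep the carbonic anhydrase fold but lack its catalytic activity, averaged 3.08 ± 0.635, 0.435 ± 0.408 and 4.62 ± 2.01 TPM. The cytosolic Car7 and the muscle enzyme Car3 averaged 1.9 ± 0.741 and 1.37 ± 1.8 TPM, and the mitochondrial Car5a and the hypoxia-inducible Car9 averaged 0.912 ± 0.994 and 0.542 ± 0.733 TPM.

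Of the 39 members, 35 passed the filter on low counts and entered the tests. The 4 that did not were Atp6v1e2, the salivary enzyme Car6 (0.171 TPM), Atp6v1fnb (0.152 TPM) and the red cell enzyme Car1 (0.118 TPM). All fold changes below are log2 values from edgeR's quasi-likelihood test on the rounded expected counts, with p-values adjusted by Benjamini-Hochberg over all 25829 genes tested and a threshold of 0.05.

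**Figure D2:**
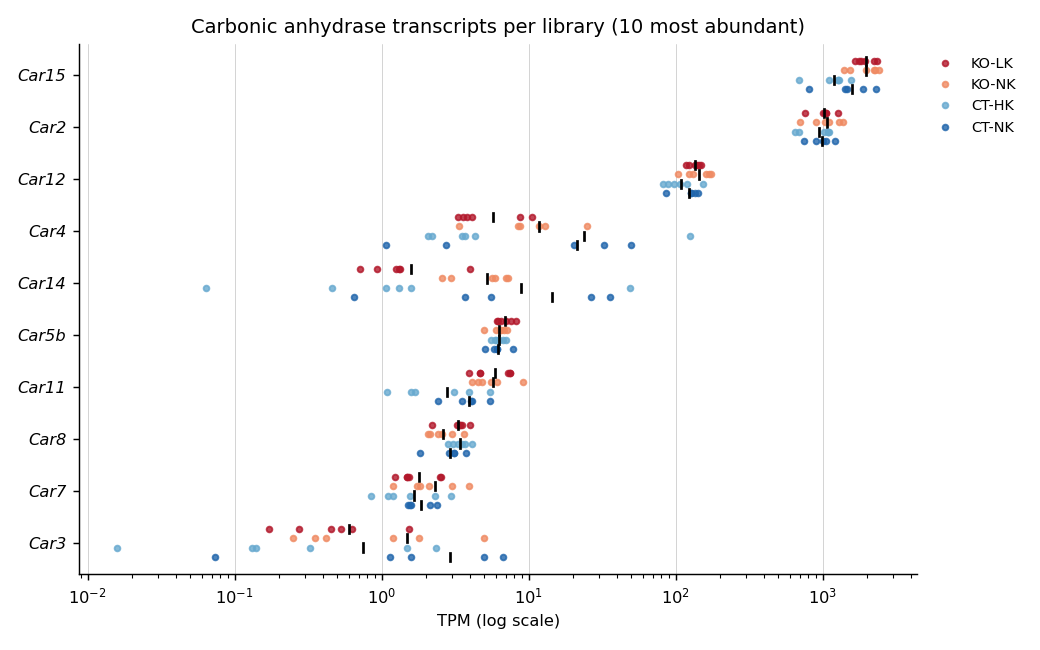
TPM of the 10 most abundant carbonic anhydrase genes in each of the 23 libraries on a log axis. Points are libraries, coloured by group, and the black ticks are group means. Car14 and Car4 spread over more than an order of magnitude within CT-HK and CT-NK, with a CT-HK library at 48.7 TPM of Car14 and 126 TPM of Car4, whereas Car2 lies between 650.2 and 1372 TPM in all libraries.

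The knockout libraries, taken over both diets, were compared with the control libraries over both diets, which asks what differs with loss of the receptor although the diets of the arms were not the same. Against the control mean, 7 of the 35 tested members fell and none rose: the pump genes Atp6v1f, Atp6v1e1, Atp6v0e and Atp6v1b2, and Car5b, Car8 and Car14; none of the 7 was called on the TPM scale, where Atp6v1b2 and Car5b turned positive. Over all genes tested in this comparison, 10.5% were called, 4.67% higher and 5.86% lower. The median log2 fold change of the members was -0.21, against 0.09 over all genes, and 27 of the 35 members had a negative value; on the TPM scale the median of the members was 0.20, that of all genes 0.22, and 27 were positive. In no member did all knockout libraries lie on one side of all control libraries, as they did above for 0.248% and below for 0.422% of all genes.

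The direction of the family as a whole depended on the scale. On the deposited TPM, tested with limma on log2(TPM + 1), 10 members rose and none fell (Atp6v0a1, Atp6v0a2, Atp6v0a4, Atp6v0d1, Atp6v0d2, Atp6v1c2, Atp6v1g1, Atp6v1g2, Car11 and Car15), where 31.6% of all genes were called, 30.3% higher and 1.29% lower. The median of all genes was 0.22 there, against 0.09 with TMM-scaled counts. The 7 genes were chosen as lower with TMM, and both scales come from the same libraries, so the second is not separate evidence. Relative to the median of all genes, each of the 7 genes lay below it on both scales. With TMM these differences were -0.78 for Atp6v1f, -0.74 for Atp6v1e1, -0.63 for Atp6v0e, -0.54 for Atp6v1b2, -0.44 for Car5b, -0.63 for Car8 and -2.77 for Car14. With TPM they were -0.42 for Atp6v1f, -0.41 for Atp6v1e1, -0.27 for Atp6v0e, -0.18 for Atp6v1b2, -0.14 for Car5b, -0.30 for Car8 and -0.69 for Car14. Mitochondrially encoded transcripts summed to 154000 TPM in KO-LK and 164000 TPM in KO-NK, against 198000 TPM in CT-HK and 197000 TPM in CT-NK, and Klk1, a kallikrein of the connecting tubule, stood at 10900 and 9830 TPM in KO-LK and KO-NK, against 30400 and 23100 TPM in CT-HK and CT-NK. The part of these transcripts in the difference between the scales was not tested.

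**Figure D3:**
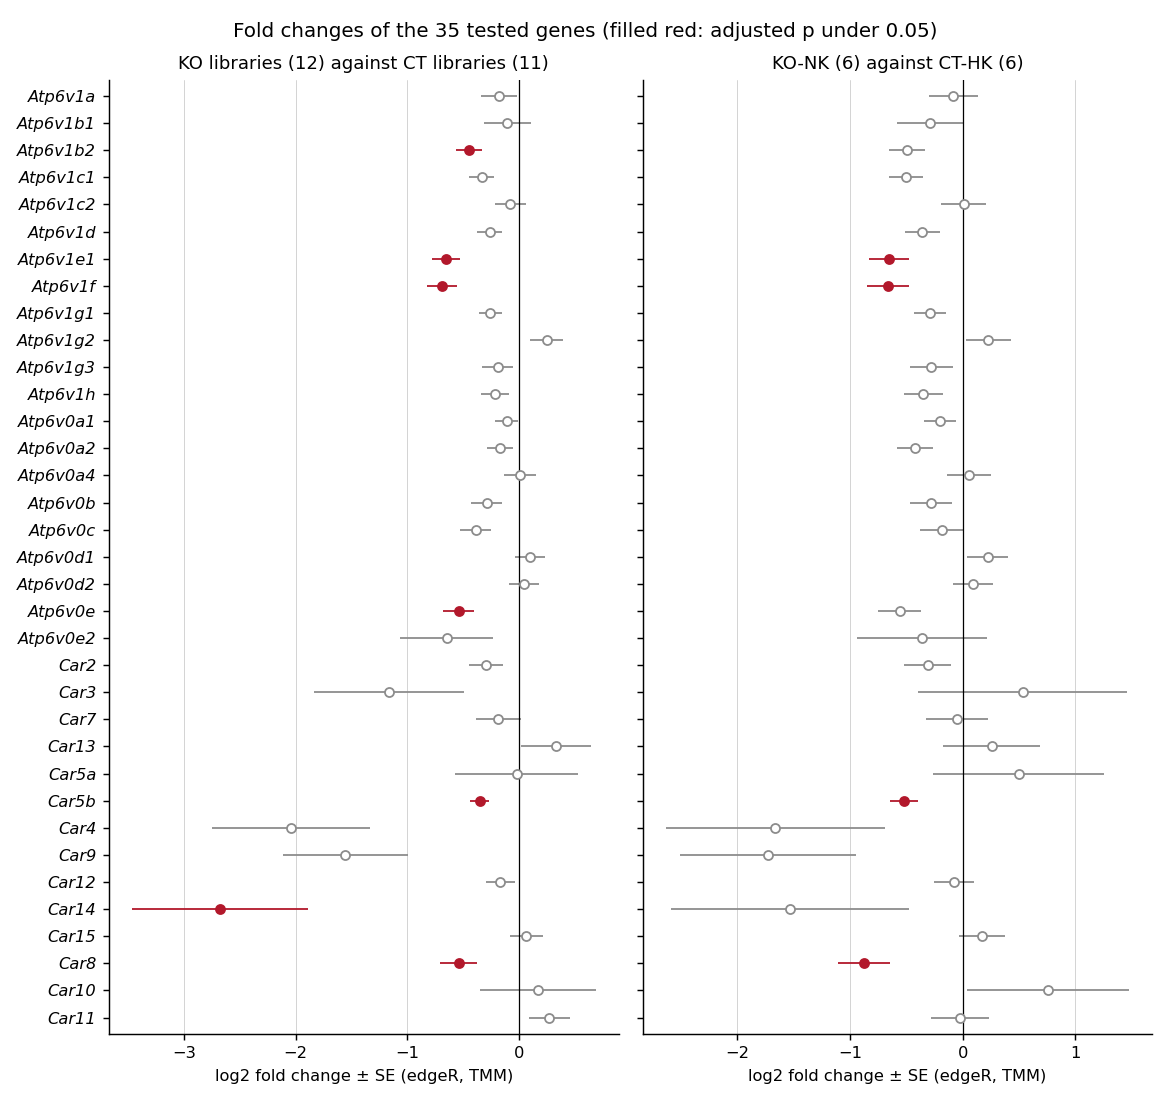
Log2 fold changes with their standard errors from edgeR on TMM-scaled counts for the 35 tested genes, for all knockout against all control libraries (left) and for KO-NK against CT-HK (right). Filled red points have an adjusted p under 0.05. Most points lie left of 0 in both panels; on the TPM scale most lie right of 0, and Atp6v1b2 and Car5b turn to 0.04 and 0.08 in the left comparison.

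Atp6v1f and Atp6v1e1 were the pump genes with the smallest p-values. The 300 bases around their RefSeq start sites, from 250 before to 50 after, are shown with that of Atp6v0e, the called gene of the membrane sector with a window, and that of Atp6v1b1, the kidney form of subunit B, which was not called. RefSeq gave such windows on GRCm38.p6 for 28 of the 39 member genes. Each line runs 5′ to 3′ on the strand of the gene, at chr6:120822649-120822948 (minus strand) for Atp6v1e1, chr6:29467533-29467832 (plus strand) for Atp6v1f, chr17:26676146-26676445 (plus strand) for Atp6v0e and chr6:83742767-83743066 (plus strand) for Atp6v1b1. Capitals mark the searched motifs, TATAAA in Atp6v1e1 and CACGTG in Atp6v0e.
Atp6v1e1: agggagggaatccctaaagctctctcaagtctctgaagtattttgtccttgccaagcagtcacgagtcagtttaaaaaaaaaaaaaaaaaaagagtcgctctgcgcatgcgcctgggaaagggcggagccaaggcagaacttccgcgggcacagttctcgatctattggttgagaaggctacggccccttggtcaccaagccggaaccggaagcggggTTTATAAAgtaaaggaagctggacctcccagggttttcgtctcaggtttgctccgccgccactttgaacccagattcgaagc
Atp6v1f: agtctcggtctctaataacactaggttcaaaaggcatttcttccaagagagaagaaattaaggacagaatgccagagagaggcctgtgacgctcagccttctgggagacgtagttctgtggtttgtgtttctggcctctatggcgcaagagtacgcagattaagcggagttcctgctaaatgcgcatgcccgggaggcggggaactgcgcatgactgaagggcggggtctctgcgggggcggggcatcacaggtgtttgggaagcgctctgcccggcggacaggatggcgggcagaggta
Atp6v0e: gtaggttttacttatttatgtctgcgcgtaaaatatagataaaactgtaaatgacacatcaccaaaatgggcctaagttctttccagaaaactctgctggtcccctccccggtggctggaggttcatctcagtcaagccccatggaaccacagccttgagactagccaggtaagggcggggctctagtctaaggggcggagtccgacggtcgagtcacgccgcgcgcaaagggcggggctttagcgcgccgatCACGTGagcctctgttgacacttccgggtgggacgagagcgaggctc
Atp6v1b1: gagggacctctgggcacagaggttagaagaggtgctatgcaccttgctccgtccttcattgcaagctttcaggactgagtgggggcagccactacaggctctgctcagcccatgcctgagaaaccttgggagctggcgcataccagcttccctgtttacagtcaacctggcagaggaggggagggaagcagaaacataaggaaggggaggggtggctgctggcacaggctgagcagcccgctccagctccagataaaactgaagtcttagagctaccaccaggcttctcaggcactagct
The windows of Atp6v1e1, Atp6v1f and Atp6v0e hold 16, 17 and 20 CG dinucleotides, while that of Atp6v1b1 holds 3. Other uncalled pump genes held from 1 (Atp6v0a4) to 30 (a window of Atp6v0c), with 22 for Atp6v1c2. The called Car5b and Car14 held 12 and 13, so these counts do not separate called from uncalled genes. The median was 13 over the windows of members and 7 over all windows, and the median GC content was 58.3% over the windows of members and 52.7% over all.

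The E-box CACGTG, the core of the sites bound by TFEB and related regulators of lysosomal genes, was searched on both strands, which read the same for this palindrome. It was in the windows of 5 of the 28 member genes, against 8.09% of all 27025 genes with a window. The 5 were Atp6v0b with 2 sites, Atp6v0d1, Atp6v0e, Atp6v1a and Car6. The longer palindrome, with GT before and AC after these 6 letters, was in none of the 28 and in 0.37% of all genes. AGAACA followed by any 3 bases and TGTTCT, the full palindrome that steroid receptors of this class bind, searched on both strands, was in none of the 28 and in 0.0111% of all genes. AGAACA alone was in 2 of the 28, Atp6v0b and Car14, against 21.3% of all genes, and TATAAA was in 2, Atp6v1e1 and Car4, against 15.7%. The TATAAA of Atp6v1e1 occurs once on each strand, 30 and 32 bases before the start site, and the 2 matches overlap. These matches describe letters within 300 bases and not binding.

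Atp6v1f (ENSMUSG00000004285, GRCm38 chromosome 6, 29467718 to 29470512, plus strand) encodes subunit F, which sits on the rotor shaft of V1. Its lowest, median and highest levels were 359.9, 450.1 and 552 CPM in KO-LK and 301, 514 and 639.9 CPM in KO-NK, against 609, 799 and 1034 CPM in CT-HK, and the 5 CT-NK libraries had 829, 821, 966, 581 and 611 CPM. In CPM all KO-LK libraries lay below every control library, and only the upper end of KO-NK reached into the range of CT-HK and CT-NK. In TPM the KO-LK libraries (797 to 1108 TPM) overlapped the control libraries (788.8 to 1673 TPM). The share of all genes with KO-LK below every control library was not counted. Knockout against control gave a log2 value of -0.69 (SE 0.13, adjusted p = 0.001175 by edgeR). In KO-NK against CT-NK, which share a diet, the value was -0.58 (SE 0.19, adjusted p = 0.1506, edgeR). The 2 comparisons without a shared library, in which the diets differ, gave -0.72 (SE 0.19, adjusted p = 0.05433) in KO-LK against CT-NK and -0.66 (SE 0.19, adjusted p = 0.03393) in KO-NK against CT-HK by the same edgeR test. The call in KO-NK against CT-HK was lost in 11 of the 23 repeats that left out 1 library, with the length offset (adjusted p = 0.08769), with the replicate block (adjusted p = 0.05942), in a fit of only these groups (adjusted p = 0.06369) and without a filter (adjusted p = 0.103, all edgeR).

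Atp6v1e1 (ENSMUSG00000019210, GRCm38 chromosome 6, 120794305 to 120822793, minus strand) encodes subunit E of the stator stalks that hold the V1 head still. It had 462, 641 and 754 CPM (lowest, median, highest) in KO-LK and 425, 725 and 868 CPM in KO-NK, against 813, 1105 and 1402 CPM in CT-HK and 1050, 1037, 1289, 861 and 766 CPM in CT-NK. In CPM KO-LK again lay below every control library, and KO-NK replicates 2 and 6 reached the lowest controls. In TPM the KO-LK libraries (449.6 to 685.7 TPM) overlapped the control libraries (462 to 933.5 TPM). Knockout against control differed by -0.65 on the log2 scale (SE 0.13, adjusted p = 0.001423, edgeR). In KO-NK against CT-NK, which share a diet, the value was -0.51 (SE 0.19, adjusted p = 0.2045, edgeR). It was -0.65 (SE 0.19, adjusted p = 0.074, edgeR) in KO-LK against CT-NK and -0.65 (SE 0.18, adjusted p = 0.02893, edgeR) in KO-NK against CT-HK. This last call was lost in 4 of the 23 repeats that left out 1 library, with the length offset (adjusted p = 0.05615), the replicate block (adjusted p = 0.06344) and no filter (adjusted p = 0.09298, all edgeR). An exon of Atp6v1e1 overlaps one of Slc25a18 on the opposite strand, and no source used here states whether counting used strand.

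Atp6v0e (ENSMUSG00000015575, GRCm38 chromosome 17, 26663231 to 26699647, plus strand) encodes the small membrane subunit e of V0. It had 391, 510.5 and 586 CPM (lowest, median, highest) in KO-LK and 328, 546 and 688 CPM in KO-NK, against 574, 789.8 and 1053 CPM in CT-HK and 762, 796, 946, 534 and 551 CPM in CT-NK. Several knockout libraries lay within the range of the controls, and the lowest controls were CT-NK replicates 4 and 5 and CT-HK replicate 6. The log2 fold change was -0.54 (SE 0.14, adjusted p = 0.01142, edgeR) in knockout against control, and no single pair of groups passed the test.

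Atp6v1b2 (ENSMUSG00000006273, GRCm38 chromosome 8, 69088646 to 69113711, plus strand) encodes the widely expressed form of subunit B. It had 138, 152 and 203 CPM (lowest, median, highest) in KO-LK and 104, 179 and 202 CPM in KO-NK, against 185, 247 and 300.5 CPM in CT-HK and 246, 166, 215, 199 and 242 CPM in CT-NK. The arms overlapped between 166 and 203 CPM. In knockout against control the gene was at -0.45 on the log2 scale (SE 0.12, adjusted p = 0.01227, edgeR). Without the 2 and the 3 libraries richest in proximal transcripts it was -0.38 and -0.40, with adjusted p = 0.06244 and 0.0871 by edgeR, and the call was lost. The 3-library version was chosen after seeing the data.

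The kidney-enriched pump subunits were not called in any of the 6 comparisons by this test. Atp6v1b1 (ENSMUSG00000006269, GRCm38 chromosome 6, 83742990 to 83758855, plus strand) had 329, 499 and 956 CPM (lowest, median, highest) in KO-LK and 369, 669 and 1047 CPM in KO-NK, against 368, 910.4 and 1336 CPM in CT-HK and 666, 393, 585, 599.6 and 568 CPM in CT-NK. The range within each of KO-LK, KO-NK and CT-HK took in all 5 CT-NK libraries. Knockout against control gave -0.10 on the log2 scale (SE 0.21, adjusted p = 0.9162, edgeR).

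Atp6v0a4 (ENSMUSG00000038600, GRCm38 chromosome 6, 38048483 to 38124586, minus strand), the kidney form of subunit a, had 209.9, 398 and 453 CPM in KO-LK and 296, 437 and 498 CPM in KO-NK, against 254, 412 and 531 CPM in CT-HK and 341, 372, 515, 317 and 289 CPM in CT-NK. The groups overlapped throughout. Its log2 fold change was 0.01 (SE 0.14, adjusted p = 0.9913, edgeR) in knockout against control, and it changed sign under several settings. On the TPM scale it was 0.48 (adjusted p = 0.006505, limma), or 0.26 above the median of all genes there. Its exons overlap those of D630045J12Rik on the same strand and Tmem213 on the opposite strand.

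Atp6v1c2 (ENSMUSG00000020566, GRCm38 chromosome 12, 17284721 to 17329359, minus strand), the epithelial form of subunit C, had 248, 348 and 371 CPM in KO-LK and 189, 339.5 and 414 CPM in KO-NK, against 238, 319 and 402 CPM in CT-HK and 428, 376, 491, 270.2 and 232 CPM in CT-NK. In knockout against control it was at -0.07 (SE 0.14, adjusted p = 0.9055, edgeR) on the log2 scale with TMM-scaled counts and 0.38 (adjusted p = 0.04274, limma) on the TPM scale. The groups overlapped on the CPM scale.

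Atp6v0d2 (ENSMUSG00000028238, GRCm38 chromosome 4, 19876841 to 19922605, minus strand) encodes the form of subunit d found in kidney and bone-resorbing cells. It had 353, 455 and 563 CPM in KO-LK and 242, 442 and 569.5 CPM in KO-NK, against 310.4, 398 and 486 CPM in CT-HK and 504, 408, 602, 429 and 327 CPM in CT-NK. In knockout against control it was at 0.05 (SE 0.13, adjusted p = 0.934, edgeR), and 0.48 (adjusted p = 0.005435, limma) on the TPM scale. Atp6v1g3 (ENSMUSG00000026394, GRCm38 chromosome 1, 138273738 to 138289462, plus strand), the kidney form of stalk subunit G, had 585, 674 and 863 CPM in KO-LK and 403, 698 and 929 CPM in KO-NK, against 603, 859.5 and 1025 CPM in CT-HK and 964, 722, 996, 579.9 and 544 CPM in CT-NK. Its log2 fold change was -0.19 (SE 0.14, adjusted p = 0.5593, edgeR).

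Among the 12 tested V1 genes, 3 fell in knockout against control, none rose and 11 had a negative log2 fold change, with a median of -0.23 (all genes 0.09); on the TPM scale 3 rose, none fell and the median was 0.23 (all genes 0.22). The exception in sign was Atp6v1g2, the neuronal form of G, at 0.25 (adjusted p = 0.3645, edgeR). Among the 9 V0 genes, 1 fell, none rose and 6 were negative, with a median of -0.17; on the TPM scale 5 rose, none fell and the median was 0.31. Of the 14 tested carbonic anhydrases, 3 fell, none rose and 10 were negative, with a median of -0.24, against 2 higher, none lower and a median of 0.12 on the TPM scale. Of all genes tested, 5.86% were called lower and 4.67% higher with TMM. On the TPM scale 1.29% were called lower and 30.3% higher. The pump genes not called and not yet named with a fold change lay between -0.65 for Atp6v0e2 and 0.10 for Atp6v0d1. Atp6v1c1 at -0.33 and Atp6v0c at -0.38 were nearest to the threshold among the uncalled pump genes, with adjusted p = 0.05724 and 0.0825 by edgeR.

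**Figure D4:**
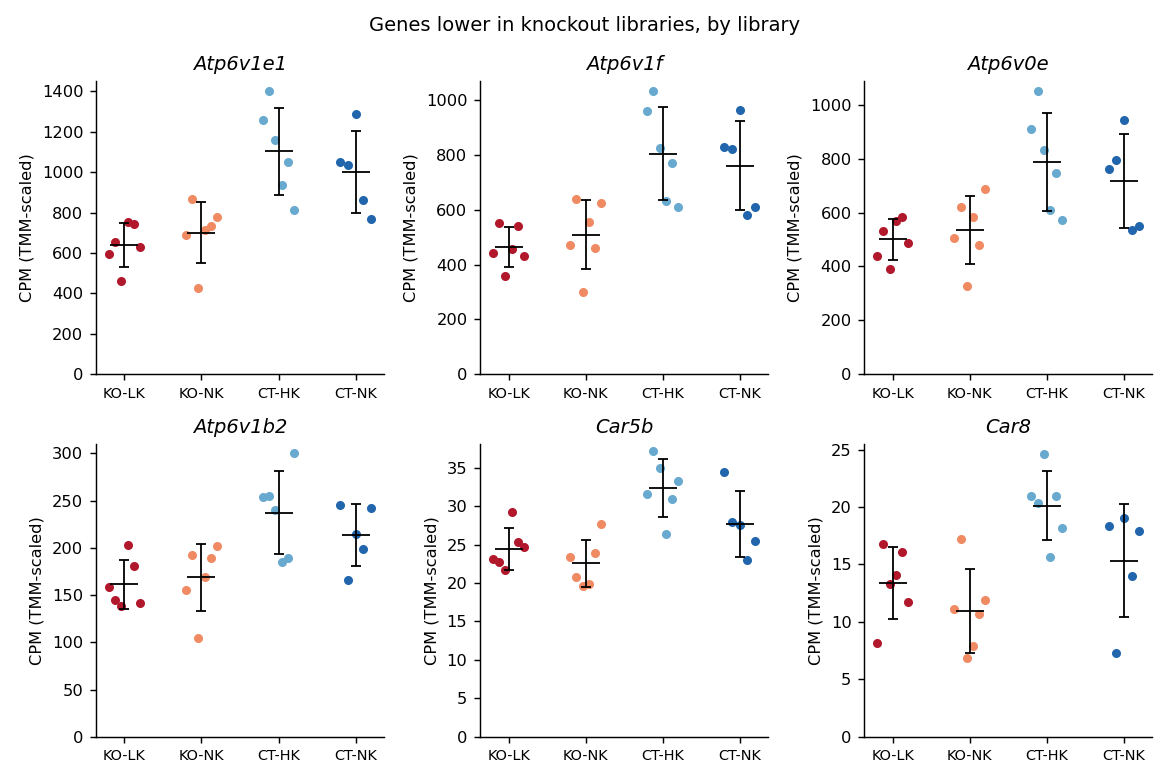
CPM per library of 6 of the 7 genes lower in knockout against control libraries (all but Car14), with group means and SD. Each axis starts at 0. In each gene the KO-LK and KO-NK libraries are centred below CT-HK and CT-NK and overlap with them in part; on the TPM scale the fold changes of Atp6v1b2 and Car5b turn positive.

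Car5b (ENSMUSG00000031373, GRCm38 chromosome X, 163976822 to 164027997, minus strand), a mitochondrial carbonic anhydrase, had 21.7, 23.9 and 29.2 CPM (lowest, median, highest) in KO-LK and 19.6, 22.1 and 27.7 CPM in KO-NK, against 26.4, 32.4 and 37.2 CPM in CT-HK and 34.5, 27.9, 27.5, 22.97 and 25.4 CPM in CT-NK. CT-HK held the highest levels, and CT-NK overlapped the knockout libraries. The log2 fold change was -0.35 (SE 0.09, adjusted p = 0.01109, edgeR) in knockout against control and -0.52 (SE 0.12, adjusted p = 0.01089, edgeR) in KO-NK against CT-HK. It was -0.18 (SE 0.13, adjusted p = 0.7066, edgeR) in KO-LK against CT-NK. In KO-NK against CT-NK, which share a diet, the value was -0.30 (SE 0.13, adjusted p = 0.3472, edgeR). On the TPM scale the sign turned in the comparisons where it was called, to 0.08 (adjusted p = 0.4772, limma) in knockout against control.

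Car8 (ENSMUSG00000041261, GRCm38 chromosome 4, 8143362 to 8239041, minus strand), a protein without carbonic anhydrase activity that is known in brain to bind the inositol trisphosphate receptor, had 8.19, 13.7 and 16.8 CPM in KO-LK and 6.86, 10.9 and 17.2 CPM in KO-NK, against 15.6, 20.6 and 24.6 CPM in CT-HK and 18.4, 7.31, 19.1, 14.0 and 17.9 CPM in CT-NK. CT-NK replicate 2 was lower than 11 of the 12 knockout libraries. The log2 fold change was -0.54 (SE 0.17, adjusted p = 0.03832, edgeR) in knockout against control and -0.87 (SE 0.23, adjusted p = 0.02313, edgeR) in KO-NK against CT-HK. It was -0.20 (SE 0.24, adjusted p = 0.9516, edgeR) in KO-LK against CT-NK. In KO-NK against CT-NK, which share a diet, the value was -0.48 (SE 0.24, adjusted p = 0.4486, edgeR). The call in knockout against control was lost in 21 of the 37 alternative settings. Among these 21 were 13 of the 23 repeats that left out 1 library, with adjusted p of at most 0.08526 by edgeR.

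The abundant carbonic anhydrases were not called in the main edgeR test. Car2 (ENSMUSG00000027562, GRCm38 chromosome 3, 14886273 to 14900770, plus strand) had 1152, 1717 and 1971 CPM (lowest, median, highest) in KO-LK and 923, 1837 and 2642 CPM in KO-NK, against 1622, 2167 and 2975 CPM in CT-HK and 2307, 2027, 2215, 1823 and 1697 CPM in CT-NK. The groups overlapped, and the log2 fold change was -0.30 (SE 0.15, adjusted p = 0.2727, edgeR) in knockout against control. Under 1 of the 37 alternative settings of this comparison Car2 was called lower.

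Car12 (ENSMUSG00000032373, GRCm38 chromosome 9, 66713686 to 66766845, plus strand), a transmembrane enzyme, had 417, 478 and 610.3 CPM in KO-LK and 312, 589 and 748 CPM in KO-NK, against 475, 590.4 and 658 CPM in CT-HK and 734, 477, 679, 562 and 456 CPM in CT-NK. In knockout against control its log2 value was -0.16 (SE 0.13, adjusted p = 0.5907, edgeR). Car15 (ENSMUSG00000090236, GRCm38 chromosome 16, 17835276 to 17838364, minus strand) had 1693, 2131 and 2563 CPM in KO-LK and 1346, 2231 and 2639 CPM in KO-NK, against 1210, 1988 and 2295 CPM in CT-HK and 2453, 2530, 2666, 1779 and 1248 CPM in CT-NK. Its log2 fold change was 0.07 (SE 0.15, adjusted p = 0.9162, edgeR) with TMM-scaled counts and 0.56 (adjusted p = 0.008925, limma) on the TPM scale. An exon of Car15 overlaps Gm20518 on the same strand. KO-NK replicate 3, which had the lowest sum of intercalated cell markers at 2531 CPM, was also the lowest KO-NK library for Car2, Car12, Car15, Atp6v1g3, Atp6v0a4 and Atp6v0d2. It was also the library with the fewest estimated counts (16158408), the highest TMM factor (1.345), the highest sum of olfactory and vomeronasal receptor transcripts (6826 CPM) and the lowest sum of principal cell markers (4194 CPM). Their part in these values was not tested.

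Car14 (ENSMUSG00000038526, GRCm38 chromosome 3, 95897768 to 95904691, minus strand) had the largest fold change of the members called, with libraries of 1 group far apart. It stood at 0.801, 1.48 and 5.14 CPM (lowest, median, highest) in KO-LK and 3.38, 7.55 and 11.1 CPM in KO-NK, against 0.145, 2.28 and 120.4 CPM in CT-HK and 12.9, 4.15, 1.20, 44.1 and 76.9 CPM in CT-NK. CT-HK replicate 6 and CT-NK replicates 4 and 5 lay above all other libraries, and the other CT-HK libraries lay below every KO-NK library. The log2 fold change was -2.68 (SE 0.79, adjusted p = 0.02918, edgeR) in knockout against control. The window of Car14 at chr3:95904636-95904935 (minus strand) is shown because it is one of the 2 member windows with AGAACA, in capitals.
Car14: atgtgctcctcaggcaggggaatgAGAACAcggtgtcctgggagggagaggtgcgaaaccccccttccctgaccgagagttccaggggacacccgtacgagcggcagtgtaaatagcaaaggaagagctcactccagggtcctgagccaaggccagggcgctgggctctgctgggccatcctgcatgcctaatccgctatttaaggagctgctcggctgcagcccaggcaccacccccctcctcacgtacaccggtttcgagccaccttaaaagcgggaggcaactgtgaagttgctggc

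The high Car14 libraries were those with the most proximal tubule transcripts, with a summed marker level of 17700 CPM in CT-HK replicate 6, 11460 CPM in CT-NK replicate 5 and 5427 CPM in CT-NK replicate 4. All 10 proximal markers had a negative log2 fold change in knockout against control (median -2.13), and 2 of the 10, Slc34a1 (-2.41, adjusted p = 0.03839) and Miox (-2.69, adjusted p = 0.01459), were called by edgeR. On the TPM scale none was called and the median was -0.16. Over all genes, 5.86% were called lower with TMM and 1.29% on the TPM scale. Without those 3 libraries richest in proximal transcripts the log2 fold change of Car14 was 0.24 (adjusted p = 0.8765, edgeR). These 3 were all controls and had the highest Car14, so leaving them out had to raise the value, whatever their proximal level. The choice of 3 was made after seeing the data. With the proximal marker level as a covariate the log2 fold change of Car14 was -0.10 (adjusted p = 0.949, edgeR). With the 8 libraries highest for olfactory and vomeronasal receptors left out it was -2.87 (adjusted p = 0.1006, edgeR). An exon of Car14 overlaps one of Aph1a on the opposite strand.

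Car4 (ENSMUSG00000000805, GRCm38 chromosome 11, 84957786 to 84966044, plus strand) had the same libraries at its top, with 2.96, 4.41 and 9.98 CPM (lowest, median, highest) in KO-LK and 4.26, 9.51 and 32.9 CPM in KO-NK, against 3.32, 4.80 and 218 CPM in CT-HK and 35.2, 2.77, 1.48, 37.9 and 75.7 CPM in CT-NK. Its log2 fold change was -2.04 (SE 0.71, adjusted p = 0.06771, edgeR) with all libraries and 0.10 (adjusted p = 0.9487, edgeR) without the 3. The 3 were the highest for Car4 too, so leaving them out had to raise this value. Car15 did not share this order, since CT-HK replicate 6 and CT-NK replicate 5 were its lowest libraries.

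**Figure D5:**
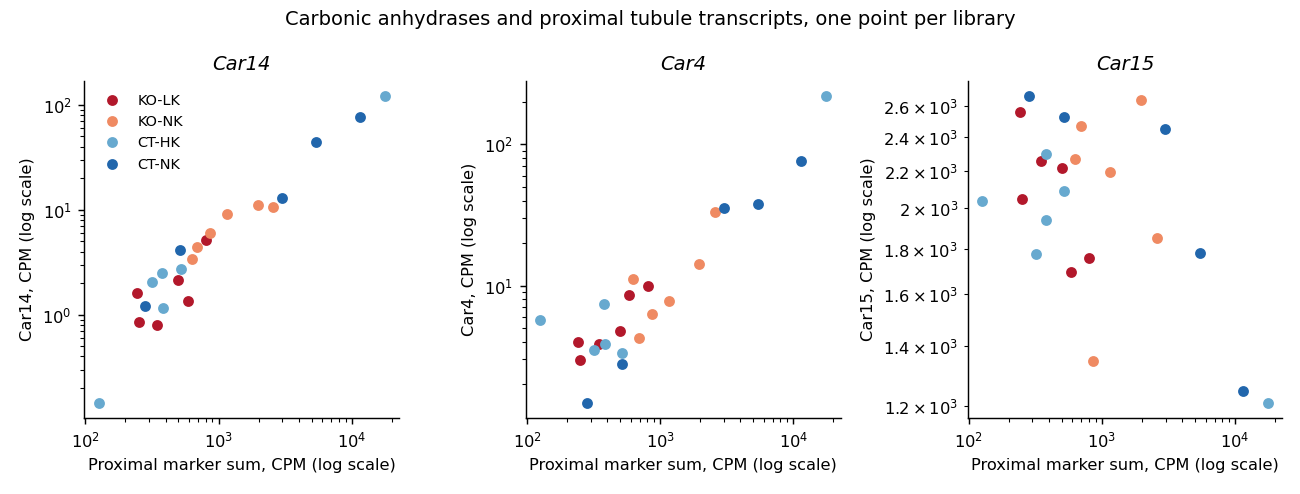
CPM of Car14, Car4 and Car15 against the summed CPM of 10 proximal tubule markers, 1 point for each library, both axes on a log scale. Car14 and Car4 are highest in the libraries with the highest marker sums, up to 120.4 and 218 CPM at a sum of 17700 CPM, and Car15 is lowest there.

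The groups were also compared in pairs. In KO-NK against CT-NK, which share a diet, no member was called by edgeR, while 1.7% of all genes were (0.937% higher and 0.763% lower); 5 of the 35 members had an unadjusted p under 0.05 (11.7% of all genes), and DESeq2 called 2, Atp6v1e1 and Atp6v1f, both lower (DESeq2 called 7.9% of all genes, 3.97% lower). The median of the members was -0.16 and that of all genes 0.15. In KO-LK against CT-NK, no member was called by edgeR, against 2.04% of all genes (0.914% higher and 1.13% lower); 9 members had an unadjusted p under 0.05 (12.9% of all genes), and DESeq2 called 6, all lower (DESeq2 called 8.97% of all genes, 5.25% lower). The median of the members was -0.22 and that of all genes -0.04.

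In KO-NK against CT-HK, 4 members fell and none rose, Atp6v1e1, Atp6v1f, Car5b and Car8, where 5.78% of all genes were called, 2.46% higher and 3.32% lower. The median of the members was -0.28, and that of all genes was 0.21. On the TPM scale limma called 7 members in this comparison, all higher, where 21.3% of all genes were called and 20.7% higher, namely Atp6v0a4, Atp6v0d1, Atp6v0d2, Atp6v1g1, Atp6v1g2, Car11 and Car15. With the 8 libraries highest for olfactory and vomeronasal receptors left out, 3 members were lower, Atp6v1b2, Atp6v1c1 and Car5b (7.05% of all genes called, 4.57% lower), while Atp6v1e1 (-0.58, adjusted p = 0.06113), Atp6v1f (-0.58, adjusted p = 0.0634) and Car8 (-0.81, adjusted p = 0.05043) were no longer called by edgeR. KO-LK against CT-NK and KO-NK against CT-HK have no library in common, but both come from the same fit with a shared estimate of spread. In both pairs the knockout mice had the diet lower in potassium, so knockout and diet cannot be told apart there. The other knockout comparisons share libraries with these, so their values are not separate evidence.

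Diet was compared within each arm. In KO-LK against KO-NK, no member and no gene of the table was called by edgeR (0% of genes), and no member had an unadjusted p under 0.05; DESeq2 called none of the members and 0.175% of all genes. In CT-HK against CT-NK, no member and no gene was called by edgeR (0% of genes), 2 of the 35 members had an unadjusted p under 0.05 (3.59% of all genes), and DESeq2 called none of the members and 0.104% of all genes. The largest pump gene difference in CT-HK against CT-NK was that of Atp6v1b1, at 0.62 on the log2 scale (SE 0.31, adjusted p = 0.9998, edgeR). In KO-LK against KO-NK the same gene was at -0.25 (SE 0.30, adjusted p = 0.928, edgeR).

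Other genes of the pathway were taken from lists. Of 15 tested genes for other pump subunits, accessory proteins and assembly factors, 2 fell and none rose in knockout against control (median -0.17). On the TPM scale limma called 3 higher and none lower (median 0.21). Over all genes, 5.86% were called lower with TMM and 30.3% higher on the TPM scale, with medians of 0.09 and 0.22. The pair that fell were Rnasek, a small protein associated with the pump, at -0.67 (SE 0.14, adjusted p = 0.001884, edgeR), which was also lower in KO-NK against CT-NK (-0.77, adjusted p = 0.0458) and KO-LK against CT-NK (-0.86, adjusted p = 0.01928), and Dmxl1, part of the complex that assembles the sectors, at -0.44 (SE 0.14, adjusted p = 0.04802, edgeR). Tcirg1 was at -0.02 (adjusted p = 0.9558, edgeR). None of the 15 bicarbonate transporters was called in any of the 6 comparisons by edgeR. In knockout against control 1 of the 15 had an unadjusted p under 0.05 (21.1% of all genes). The most was 5 of the 15, in KO-NK against CT-HK (17.1% of all genes). Limma on the TPM scale called 2 in knockout against control, both higher, where 30.3% of all genes were called higher. Slc4a1, the basolateral exchanger of acid-secreting intercalated cells, was at 0.43 (SE 0.32, adjusted p = 0.5526, edgeR), and Slc26a4, the apical exchanger pendrin of bicarbonate-secreting ones, was at -0.19 (SE 0.16, adjusted p = 0.6233, edgeR) and, on the TPM scale, at 0.30 (adjusted p = 0.1275, limma).

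Of 25 lysosomal genes, 4 fell and 1 rose in knockout against control, with a median of -0.21. On the TPM scale none fell and 11 rose, with a median of 0.23. Over all genes, 5.86% were called lower and 4.67% higher with TMM (median 0.09). On the TPM scale 1.29% were called lower and 30.3% higher (median 0.22). The protease Ctsl was at -0.67 (SE 0.15, adjusted p = 0.004744, edgeR), and the membrane protein Lamp1 at -0.43 (SE 0.13, adjusted p = 0.02956, edgeR). Glb1 and Ctsa, which encode beta-galactosidase and its protective protein, were at -0.61 and -0.51. The autophagy receptor Sqstm1 was at 0.41 (SE 0.13, adjusted p = 0.04607, edgeR).

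Among 7 general intercalated cell markers, the ammonia transporter Rhbg fell (-0.75, SE 0.18, adjusted p = 0.006049, edgeR), none rose, and the median was -0.14, against 1 higher, none lower and a median of 0.27 on the TPM scale. Of all genes, 5.86% were called lower and 4.67% higher with TMM, and 30.3% higher on the TPM scale. Of the 6 markers of acid-secreting intercalated cells all had positive values in knockout against control, with a median of 0.47 (0.73 on the TPM scale), and Dmrt2, a transcription factor, rose (0.59, SE 0.18, adjusted p = 0.03589, edgeR). In the pairs of groups the 6 differed, with 6 positive in KO-NK against CT-NK (median 0.72) and 6 in KO-NK against CT-HK (median 0.96), but 2 in KO-LK against CT-NK (median -0.12) and none in KO-LK against KO-NK (median -0.66). Of the 5 markers of bicarbonate-secreting cells, Spink8 fell (-1.56, SE 0.15, adjusted p = 2.713e-07, edgeR) and the median was -0.05 (0.42 on the TPM scale). With the summed general markers as a covariate the median of all genes moved to -0.19, and 11 members were called in knockout against control, 7 lower and 4 higher, where 19.4% of all genes were called, 6.89% lower and 12.5% higher. Under it, Atp6v1e1 was at -0.38 (adjusted p = 0.0009026, edgeR) and Atp6v1f at -0.41 (adjusted p = 0.001982, edgeR), while Atp6v0e was at -0.25 (adjusted p = 0.05908) and Car8 at -0.33 (adjusted p = 0.1342) and both were no longer called by edgeR.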

How the data were processed

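RNA from 23 libraries was converted to cDNA with SMART-Seq HT and made into libraries with Nextera XT, per the labels' protocols. Reads were quantified with Salmon (listed as 0.14.10) on GRCm38.p6, per the submitters' processing notes. The authors deposited expected counts per gene (35.9% are not whole numbers) and TPM, which is scaled by transcript length and to a fixed total. Use of strand in the quantification is not given in the sources used here; exons of 13 members overlap another gene.

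Expected counts were rounded and tested in edgeR 4.0.16 (R 4.3.3) with TMM scaling, the default low-count filter and 1 mean per group over all 23 libraries, which left 25829 genes, 19 residual degrees of freedom and a common biological coefficient of variation of 0.563. CPM was computed on TMM-scaled library sizes; the deposited TPM was used to compare levels between genes. Benjamini-Hochberg adjustment was over all genes tested, with a threshold of 0.05. The members and lists were chosen with earlier results of these data known. Values per library were given, by rule, for every member called in any comparison, 5 kidney-enriched pump subunits and 5 carbonic anhydrases. Alternatives were DESeq2 1.42.0, its size factors, other filters, limma 3.58.1 on log2(TPM + 1) and log2(TPM + 0.1), a length offset, a replicate block, covariates, a robust fit, fits of only the groups compared, and libraries left out. The pipeline was tested on simulated counts. No pair of libraries within a group was a duplicate. Promoter windows are from RefSeq. The main test used no pairing by replicate number. Most same-numbered pairs within an arm correlated positively, and most between the arms negatively. Fitted fold changes cover the spread between libraries, and depth limits mainly members under 1 TPM.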

Additional observations from a re-analysis of the deposited data

Results flagged for a closer look

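Single libraries far from the rest of their group were looked for in 64 sets of values, those of 16 members in 4 groups, by the ratio of the gap to the range; about 1 in 20 such sets would stand out by chance, and 4 did. Car14 was 120.4 CPM in CT-HK replicate 6, with the next library of that group at 2.71 CPM, and Car4 was 218 CPM in the same library, with the next at 7.39 CPM. This library also had the highest proximal marker sum, 17700 CPM. Car4 was 32.9 CPM in KO-NK replicate 6, with the next library of that group at 14.2 CPM; its proximal sum was the highest of the KO-NK libraries. Car14 was 5.14 CPM in KO-LK replicate 1, with the next at 2.14 CPM; its proximal sum was the highest of the KO-LK libraries. The part of proximal transcripts in these values was not tested beyond the covariate. The 3 left-out libraries richest in proximal markers were themselves the highest for Car14 and Car4, so leaving them out cannot decide it.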

How the results depend on the processing

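The number of members called was 0 in KO-NK against CT-NK, 0 in KO-LK against CT-NK, 4 in KO-NK against CT-HK and 7 in knockout against control, the order used next. DESeq2 gave 2, 6, 8 and 13, where 7.9%, 8.97%, 16.6% and 20.2% of all genes were called, and a filter of 5 CPM in 5 libraries 8, 7, 10 and 16 (15 lower), against 19.8%, 19.3%, 28.5% and 38.2%. Limma on log2(TPM + 1), and likewise log2(TPM + 0.1), gave 1, 2 and 7 in the first 3, all higher, and 10 higher in knockout against control. On log2(TPM + 1), 20.7% of all genes were called higher in KO-NK against CT-HK and 30.3% in knockout against control. In KO-LK against CT-NK, DESeq2 size factors gave 2, the robust fit 1, only the groups compared 3, the proximal covariate 2, and leaving out the 2 or the 3 libraries richest in proximal markers 1 each. In KO-NK against CT-HK, DESeq2 size factors gave 7, no filter 1 and the length offset 2. In knockout against control, no filter gave 4, and leaving out those 2 or 3 libraries 4 each. The covariate for intercalated markers gave 1 and 7 in the first 2 and 11 in the last, where 19.4% of all genes were called. Leaving out 1 library at a time gave 0 to 0, 0 to 4, 1 to 6 and 5 to 9, with 0 to 1 in CT-HK against CT-NK and 0 to 0 in KO-LK against KO-NK. Where no share of all genes stands beside a count, here or for the replicate block, the members were not compared with all genes. Such a count cannot be read as a result about the members. The cause of these moves in the counts was not tested. This holds for the filters too, which change the number of genes tested.

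Same-numbered libraries did not deviate together in all pairs of groups (10 of 33 pairs above a correlation of 0.1, range -0.702 to 0.711). For replicates 1 to 6, KO-LK with KO-NK gave 0.54, -0.111, 0.491, 0.126, 0.388 and -0.418. For replicates 1 to 5, CT-HK with CT-NK gave 0.396, -0.418, 0.434, 0.711 and -0.0623. Between the arms most values were negative (-0.702 to 0.594). Of the 23 libraries, 0 correlated best with their own number in another group. A replicate block gave 1 call in KO-NK against CT-HK and 5 in knockout against control.

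Signs turned for small values in knockout against control. Atp6v0a4 was -0.0219 with DESeq2, -0.0219 with its size factors, -0.0357 without a filter, -0.0266 with the replicate block, -0.00430 with the proximal covariate, and -0.0357 and -0.0798 without the 2 and the 3 libraries. Without those 2 and 3, Atp6v0d2 was -0.0344 and -0.0646 and Car15 -0.0529 and -0.11; without the 3, Car14 was 0.24 and Car4 0.10. On log2(TPM + 1) and log2(TPM + 0.1), Atp6v1b1 was 0.31 and 0.31, Atp6v1b2 0.0358 and 0.0364, Atp6v1c2 0.38 and 0.39, Atp6v1g3 0.26 and 0.27, Car12 0.27 and 0.28, Car2 0.12 and 0.12, and Car5b 0.0777 and 0.0884, with Car5b at 0.00747 and 0.00782 in KO-NK against CT-HK. With the intercalated covariate, Atp6v1b1 was 0.0303, Atp6v1c2 0.25, Atp6v1g3 0.11, Car12 0.0626 and Car2 0.00103.

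Leaving out 1 library gave Atp6v0a4 -0.0435 to 0.0938, Atp6v0d2 -0.00113 to 0.16, Atp6v1c2 -0.14 to 0.0426 and Car15 -0.00293 to 0.18. Car14 ranged from -3.02 to -0.86 and lost its call without KO-NK replicate 4, CT-HK replicate 6 or CT-NK replicate 5. In KO-NK against CT-HK, Atp6v1f ranged from -0.73 to -0.46 and lost its call in 11 of the 23 repeats, Atp6v1e1 in 4 and Car8 in 2. In knockout against control, Atp6v1f, Atp6v1e1, Atp6v0e, Atp6v1b2 and Car5b kept theirs in all 23.

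Isoform ratios (log2, TPM) were a4 to a1 3.39, B1 to B2 2.23, C2 to C1 2.33, d2 to d1 1.16, G3 to G1 1.25 and a4 to Tcirg1 3.67. From CPM, without length, they were 1.59 for B1 to B2, 1.67 for C2 to C1, 2.06 for d2 to d1, 2.18 for G3 to G1 and 4.62 for a4 to Tcirg1.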
